A study of Mus musculus with 29 samples.

Results

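Heme and iron handling genes were followed in mouse brain tissue 21 days after a photothrombotic stroke and in tissue without a stroke. The group holds 10 genes chosen by symbol, of 25746 genes in the count files: Hmox1, Blvrb, Fth1, Ftl1, Tfrc, Slc40a1, Slc11a1, Cp, Steap3 and Steap4. Each symbol matched 1 row, and all 10 passed the filter on low counts that left 17031 genes for testing. The 29 samples form 8 groups, all from adult mice of about 3 months and of both sexes. Non-stroked tissue came from 4 wildtype (WT, C57BL/6) samples, 3 Rag2-/- samples (C57BL background, without mature T and B cells) and 4 NSG samples (NOD background, without T, B and NK cells through Prkdc and Il2rg). Stroked tissue came from 4 WT, 3 Rag2-/- and 3 NSG samples and from 8 WT samples given tacrolimus (WT-Tacr), a calcineurin inhibitor delivered by osmotic pump. Of these, 3 received tacrolimus from day 0 (WT-Tacr acute) and 5 from day 7 (WT-Tacr delayed). Tacrolimus without a stroke was not analysed here, and WT, WT-Tacr acute and WT-Tacr delayed are all read against the same 4 non-stroked samples. Both kinds of deficient mouse lack the cells from birth, and a whole-tissue sample mixes all cell types. The methods take control tissue from the contralesional side. For RNA sequencing they name fewer NSG and tacrolimus-treated mice than there are samples, but at least as many WT and Rag2-/- mice as samples. The study elsewhere describes the controls as separate mice without a stroke. Whether stroked and non-stroked samples share mice is therefore unclear, and p-values measure only the spread between these samples.

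Red blood cells and dying cells release heme, which is cut open by heme oxygenase into iron, carbon monoxide and biliverdin. Phagocytes that clear the debris store the iron in ferritin, a shell of heavy and light chains, or return it through ferroportin, the only known iron exporter of mammalian cells. When cells hold much iron, iron regulatory proteins let go of hairpins in certain mRNAs, which lets ferritin and ferroportin be translated and lets the mRNA of the transferrin receptor be degraded.

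That hairpin, the iron-responsive element, is shown here because it marks mRNAs whose translation or stability the iron regulatory proteins can set. GENCODE M21 transcripts (GRCm38) were searched for a stem of 5 base pairs (G-U pairs allowed) that closes a loop of CAGTG followed by a base other than G and has an unpaired C at its foot. In each line the capitals mark the unpaired C and the 6 bases of the loop, written 5′ to 3′ as DNA.
Fth1, 5′ UTR, chr19:9982733-9982759, plus strand: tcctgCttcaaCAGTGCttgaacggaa
Ftl1, 5′ UTR, chr7:45459780-45459806, minus strand: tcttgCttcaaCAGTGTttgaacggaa
Slc40a1, 5′ UTR, chr1:45925466-45925492, minus strand: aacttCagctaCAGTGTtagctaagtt
Tfrc element 1, 3′ UTR, chr16:32631220-32631246, plus strand: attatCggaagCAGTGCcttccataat
Tfrc element 2, 3′ UTR, chr16:32631599-32631625, plus strand: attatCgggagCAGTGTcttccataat
Tfrc element 3, 3′ UTR, chr16:32631664-32631690, plus strand: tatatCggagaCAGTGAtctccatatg
Tfrc element 4, 3′ UTR, chr16:32631711-32631737, plus strand: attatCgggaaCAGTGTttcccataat
A UTR match was found in 4 of the 10 genes, and in 0.552% of the 21901 protein-coding genes searched. The other 6 genes held none with this pattern. A match is a description of letters and was not tested for binding. Counts of mRNA, as used here, do not report on translation.

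Total counts per sample were 17789044 to 29928311 in the 9 samples whose labels begin with TF and 32507506 to 43403413 in the 20 whose labels begin with Imm2, and these prefixes are treated as 2 cohorts. All non-stroked samples are Imm2 and all WT-Tacr delayed samples are TF. Stroked WT has 2 samples of each cohort, and WT-Tacr acute has 1 Imm2 and 2 TF samples. Rag2 had a count in 1 of the 29 samples, so it checks no label. Il2rg stood at 0.784 to 0.979 CPM (counts scaled to the TMM-adjusted library size) in stroked NSG samples and at 2.11 to 3.46 CPM in stroked WT samples. Without a stroke it did not separate the strains (0.681 to 1.05 CPM in NSG, 0.716 to 0.871 CPM in WT). The summed level of 8 activated phagocyte markers (Cd68, Lgals3, Gpnmb, Cd14, Itgax, Spp1, Ms4a7 and Aif1) was 22.4 to 29.9 CPM in the 11 non-stroked samples and at least 249.9 CPM in every stroked sample outside WT-Tacr acute. Within WT-Tacr acute it was 64.9, 24.9 and 523 CPM in replicates 1, 2 and 3. Replicate 2 thus lay within the non-stroked range, and the files deposited for replicates 1 and 2 each carry another number than the sample's title. Results for WT-Tacr acute are given with and without it.

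**Figure D1:**
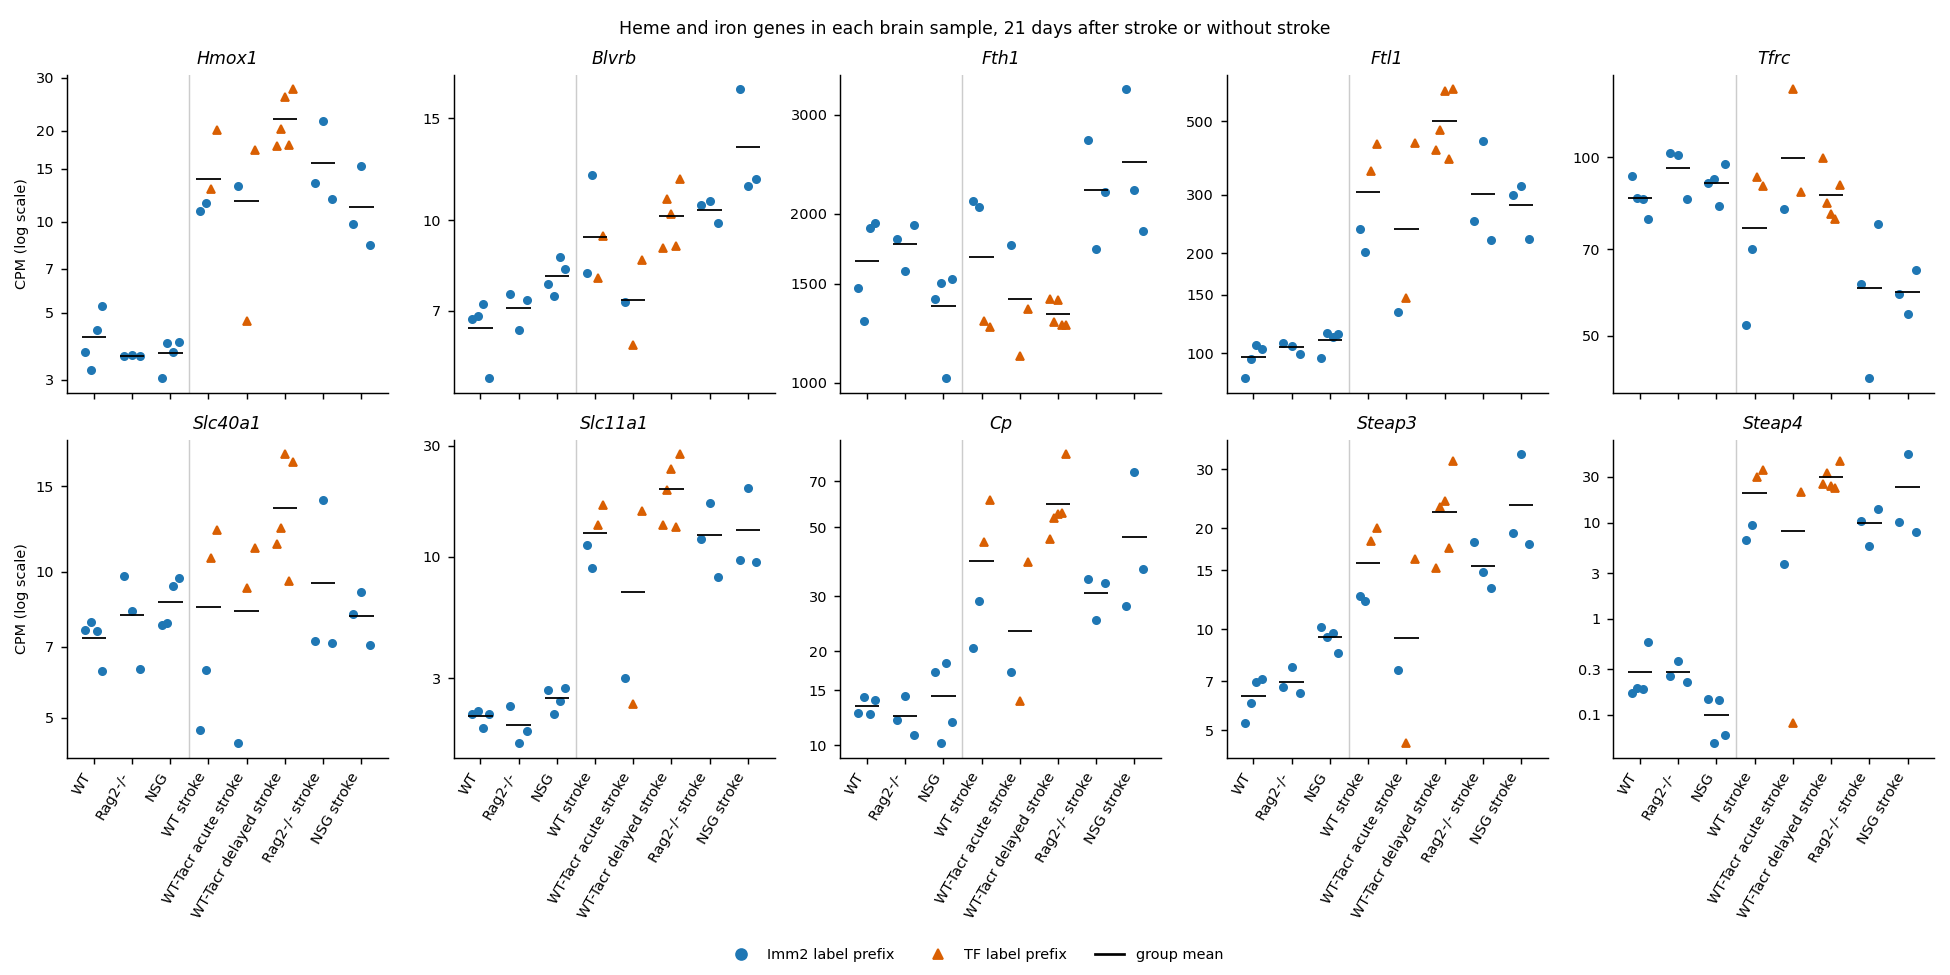
Level of each of the 10 genes in each of the 29 samples (CPM at the TMM-adjusted library size, log axis that differs between panels), by group, with circles for the Imm2 and triangles for the TF label prefix and a bar at the group mean. Steap4 spans the widest range, from 0.0508 CPM in a non-stroked NSG sample to 52.0 CPM in a stroked NSG sample, and Tfrc falls below all non-stroked samples in all stroked Rag2-/- and NSG samples.

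In non-stroked WT tissue the ferritin heavy chain Fth1 was the most abundant of the 10 mRNAs per length of exon, at 474 ± 90 CPM per kb (SD, n = 4). The light chain Ftl1 followed at 72.7 ± 7.2 CPM per kb and the transferrin receptor Tfrc at 13.8 ± 0.93. Hmox1 (2.37 ± 0.51 CPM per kb) and Blvrb (2.35 ± 0.29) could not be separated from each other by their spread. Below them stood Cp (1.40), Steap3 (1.11), Slc40a1 (0.811) and Slc11a1 (0.555), and Steap4 was lowest at 0.0891 ± 0.063 CPM per kb, from 6 to 21 counts per sample. All other neighbours in this order were apart in every sample. The order rests on the exon lengths used. In CPM not divided by length, Slc40a1 (6.24 to 7.86), Blvrb (5.36 to 7.19) and Steap3 (5.27 to 7.09) overlapped. Stroked WT tissue kept Fth1, Ftl1 and Tfrc as the 3 highest (484, 228 and 12.3 CPM per kb), while Steap4 moved to 6.41 ± 4.5 CPM per kb. Near-identical processed copies of both ferritin genes exist in the genome, so their counts are uncertain where the counting split reads between copies.

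Stroke in WT samples raised 7 of the 10 genes and lowered none. Of all 17031 genes, 15.2% were called higher and 11.6% lower at an adjusted p below 0.05 (edgeR quasi-likelihood test, Benjamini-Hochberg). The median log2 fold change was 1.42 over the 10 genes and -0.00045 over all genes. The same 7 genes were higher in every stroked than in every non-stroked WT sample, which held for 16.3% of all genes. They were Hmox1 and Blvrb (heme breakdown), Ftl1 (storage), Slc11a1 (metal transport out of the phagosome), Cp (iron oxidation for export) and the metalloreductases Steap3 and Steap4. Fth1, Tfrc and Slc40a1 did not pass the test. All 3 carry an iron-responsive element, as does Ftl1, which rose.

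Heme breakdown was led by Hmox1, the inducible heme oxygenase. Its level was 3.70, 3.24, 4.40 and 5.28 CPM in the non-stroked WT samples and 10.9, 11.6, 12.9 and 20.1 CPM in the stroked ones (replicates 1 to 4). The groups did not overlap, and the highest value was a TF sample. The log2 fold change was 1.74 ± 0.29 (SE), a 3.33-fold rise, with an adjusted p of 0.000134 in edgeR. Within the Imm2 cohort alone it was 1.44 (adjusted p = 0.000801, edgeR). Blvrb, a reductase that acts on biliverdin and on flavins, rose from 6.54 ± 0.81 to 9.37 ± 1.9 CPM (SD, n = 4 each). This was the smallest of the 7 rises, with a log2 fold change of 0.52 ± 0.14 (adjusted p = 0.00901, edgeR). Its highest stroked value was an Imm2 sample at 11.97 CPM.

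The 2 ferritin chains differed in their response. Ftl1 was 84.3, 95.9, 106.3 and 102.9 CPM in non-stroked WT samples and 237, 201, 355 and 426 CPM in stroked replicates 1 to 4. Both Imm2 samples (replicates 1 and 2) lay below both TF samples, and all 4 lay above every non-stroked sample. The log2 fold change was 1.65 ± 0.29 (adjusted p = 0.000225, edgeR), or 1.18 within Imm2 (adjusted p = 0.00076, edgeR). Fth1 was 1286 to 1926 CPM without a stroke and 2110, 2057, 1288 and 1255 CPM in the same 4 stroked samples. Here the order of the cohorts was opposite, with Imm2 above and TF within or below the non-stroked range. Its log2 fold change was 0.03 ± 0.20, with a 95% interval of -0.37 to 0.43.

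The ratio of Ftl1 to Fth1 mRNA per length of exon describes the balance of the chains in 1 sample. It ran from 0.138 to 0.193 in non-stroked WT samples. In stroked WT samples it was 0.291 and 0.253 in the Imm2 cohort and 0.713 and 0.879 in the TF cohort. Every stroked value exceeded every non-stroked value, and the gap between cohorts was wider than the gap between stroked and non-stroked samples within Imm2. In WT-Tacr delayed, all TF, it was 0.751 to 1.27, and above 1 in 2 of these 5 samples. The ratio of counts, not divided by length, was 0.440 and 0.492 in these 2 (replicates 3 and 5). A ratio above 1 thus depends on the exon lengths used (3469 bases for Fth1 and 1340 for Ftl1). In the Imm2-only stroked groups the ratio per length was 0.238, 0.652 and 0.260 in Rag2-/- and 0.233 to 0.374 in NSG. In the non-stroked samples of these strains it was 0.135 to 0.173 and 0.178 to 0.285. WT-Tacr acute replicate 2, a TF sample at the non-stroked level of phagocyte markers, had a ratio of 0.341. The part of the cohort in this ratio was not tested.

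**Figure D2:**
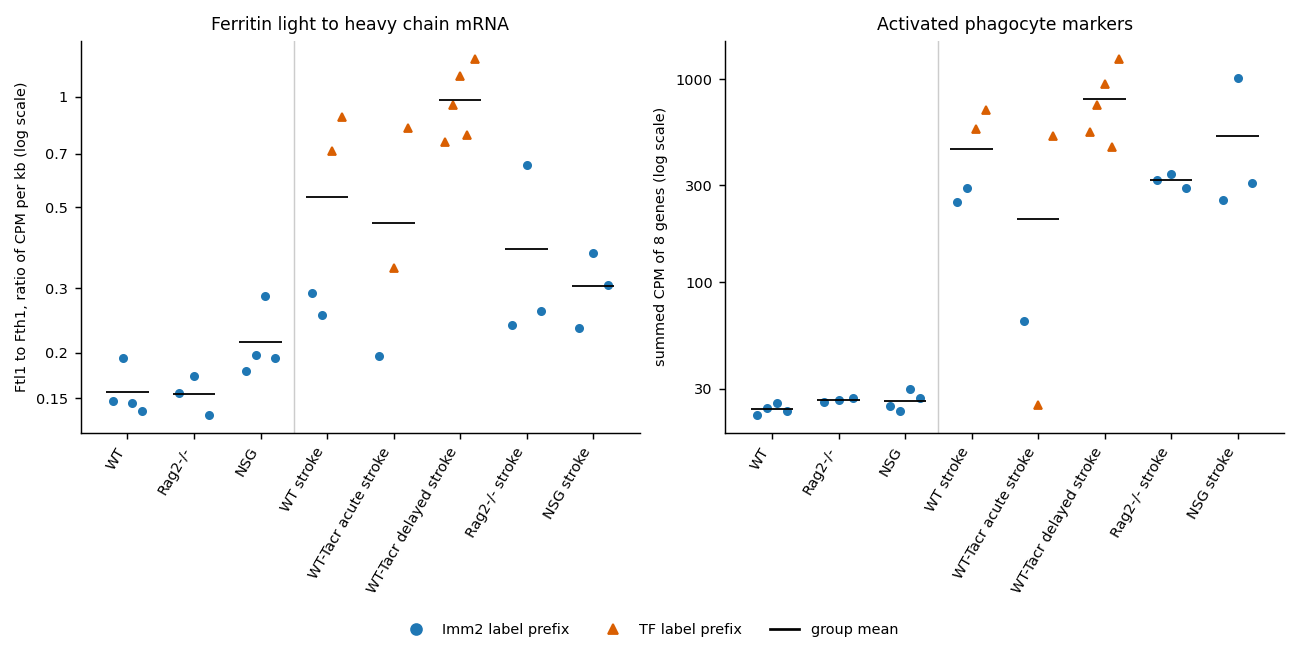
Ratio of Ftl1 to Fth1 (CPM per kb of exon, left) and summed CPM of the 8 activated phagocyte markers (right) in each sample, both on log axes, with circles for the Imm2 and triangles for the TF label prefix and a bar at the group mean. Both measures are higher in stroked than in non-stroked WT samples and peak in a WT-Tacr delayed sample (1.27 and 1261 CPM), while WT-Tacr acute replicate 2 has a ratio of 0.341 at a marker sum of 24.9 CPM.

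The uptake and export genes that passed no test in WT samples also followed the cohort. Tfrc, the receptor that takes up transferrin-bound iron and is abundant in brain endothelium and neurons, was 78.8 to 92.8 CPM without a stroke. In stroked WT samples it was 52.1 and 70.1 CPM in Imm2, below every non-stroked sample, and 92.5 and 89.5 CPM in TF, within their range. Its log2 fold change was -0.17 ± 0.16 with both cohorts, -0.48 within Imm2 (adjusted p = 0.0977, edgeR) and -0.45 with the cohort as a covariate (adjusted p = 0.0599, edgeR). Slc40a1, which encodes ferroportin, was 6.24 to 7.86 CPM without a stroke, 4.72 and 6.28 CPM in stroked Imm2 samples and 10.6 and 12.2 CPM in stroked TF samples. Its log2 fold change was 0.20, with a 95% interval of -0.37 to 0.78. The summed level of 8 endothelial markers moved in the same samples, with 120.4 and 118.5 CPM in Imm2 and 211 and 176 CPM in TF, beside 186 to 231 CPM without a stroke. The sum of 7 neuron markers was 7612 and 7888 CPM in Imm2 and 5952 and 6324 CPM in TF, beside 8556 to 9489 CPM without a stroke. The part of vessel content, neuron content or cohort in these values was not tested. Fewer cells of a type and less mRNA per cell cannot be told apart in whole tissue.

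The metal transporter Slc11a1 is made by macrophages and microglia and pumps divalent metals out of the phagosome. C57BL/6 mice carry an inactive form of the protein and NOD mice an active one, which mRNA counts do not show. Its level was 1.83 to 2.18 CPM in non-stroked WT samples and 11.3, 8.97, 13.7 and 16.7 CPM in stroked replicates 1 to 4. The groups were several-fold apart, and the log2 fold change was 2.62 ± 0.42 (6.15-fold, adjusted p = 0.000107, edgeR) and 2.30 within Imm2. The sum of the 8 phagocyte markers moved with it, from 22.4 to 25.6 CPM without a stroke to 250 to 707 CPM with one, and all 8 markers were called higher. Of 8 homeostatic microglia markers, 6 were called higher as well, and their sum went from 266 to 309 CPM to 475 to 647 CPM. No marker of either list was at 0 in any group. The part of cell numbers in the rise of Slc11a1 or any of the other genes was not tested.

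Cp, the ferroxidase ceruloplasmin, which in brain is made largely by astrocytes and by choroid plexus, was 12.6 to 14.3 CPM in non-stroked WT samples. Stroked replicates 1 to 4 had 20.5, 28.9, 44.9 and 61.2 CPM. All lay above the non-stroked range, the TF samples highest. The log2 fold change was 1.54 ± 0.33 (2.90-fold, adjusted p = 0.00137, edgeR). Within Imm2 it was 0.89 and no longer called (adjusted p = 0.0743, edgeR). Choroid plexus transcripts were carried into some samples and not others, with marker sums of 11.7 to 834 CPM in non-stroked and 15.1 to 271 CPM in stroked WT samples. In non-stroked WT replicates 1, 3, 4 and 5, Cp was 12.64, 14.3, 12.62 and 13.9 CPM at sums of 11.7, 13, 834 and 451.5 CPM. In stroked WT replicates 1 to 4 the sums were 15.1, 17.4, 164 and 271 CPM. In stroked Rag2-/- replicates 1 to 3, Cp was 34.1, 25.1 and 33.0 CPM at sums of 1632, 13.7 and 11.6 CPM. In non-stroked NSG replicates 1 to 4, Cp was 17.2, 10.2, 18.3 and 11.9 CPM at sums of 1210, 303, 458 and 18.5 CPM. Of 8 astrocyte markers, 6 were called higher and 1 lower in stroked WT samples, with sums of 5057 to 5739 CPM without and 5607 to 7389 CPM with a stroke. The part of choroid plexus or astrocytes in the level of Cp was not tested.

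The STEAP proteins reduce ferric iron so that it can cross membranes, Steap3 in endosomes beside the transferrin receptor, and Steap4 is known from fat and inflamed tissue. Steap3 was 5.27 to 7.09 CPM in non-stroked and 12.1 to 20.1 CPM in stroked WT samples, a log2 fold change of 1.31 ± 0.27 (adjusted p = 0.00124, edgeR). It rose although Tfrc, its partner in iron uptake, did not pass the test. Steap4 was 0.171, 0.190, 0.186 and 0.577 CPM in non-stroked samples and 6.61, 9.47, 29.6 and 35.2 CPM in stroked replicates 1 to 4. This was the steepest change of the 10 genes, and it started from 6 to 21 counts per sample. The log2 fold change was 6.15 ± 0.94 with both cohorts (70.8-fold, adjusted p = 7.1e-05, edgeR) and 4.83 within Imm2. Both TF samples lay above both Imm2 samples.

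**Figure D3:**
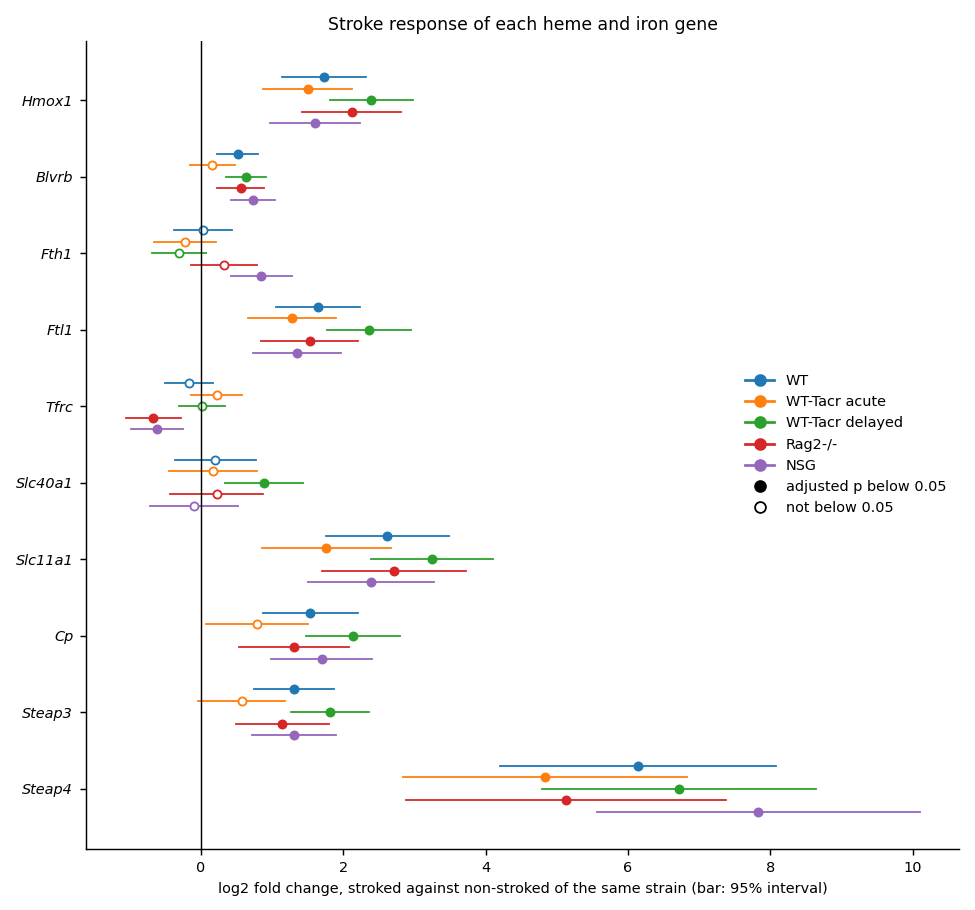
Log2 fold change of each gene, stroked against non-stroked samples of the same strain, with 95% intervals, for 5 stroked groups (WT, WT-Tacr acute, WT-Tacr delayed, Rag2-/- and NSG). Filled points have an adjusted p below 0.05 in edgeR: Hmox1, Ftl1, Slc11a1 and Steap4 are filled in all 5 groups, and Tfrc lies below 0 and is filled only in Rag2-/- (-0.67) and NSG (-0.61).

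In Rag2-/- samples the same 7 genes as in WT rose (6.71% of all genes were called higher) and Tfrc fell (1.53% lower). The median log2 fold change was 1.23 over the 10 genes and -0.0033 over all genes. The 7 were higher in every stroked than in every non-stroked sample (18.8% of all genes), and Tfrc was lower in all (16.9%). Hmox1 went from 3.60, 3.62 and 3.59 CPM to 13.4, 21.6 and 11.9 CPM, a log2 fold change of 2.12 ± 0.34 (adjusted p = 0.000461, edgeR). Its 3 non-stroked values were close together, and the stroked sample with the most Hmox1 (replicate 2) also had the most Ftl1 (435 CPM), Slc40a1 (14.0 CPM) and Slc11a1 (17.0 CPM) and the least Tfrc (42.4 CPM), Cp and Steap4 of the 3. Tfrc was 101.6, 100.7 and 85.1 CPM without a stroke and fell by 0.67 ± 0.19 on the log2 scale (adjusted p = 0.0268, edgeR). The neuron marker sum was 8468 to 8897 CPM without and 6285 to 7876 CPM with a stroke. The endothelial marker sum was 150.6 to 220.6 CPM without and 130.3 to 163 CPM with one. The part of these cells in the fall of Tfrc was not tested. Slc11a1 rose by 2.71 and Steap4 by 5.13 on the log2 scale. Blvrb (0.56), Cp (1.31) and Steap3 (1.15) rose with adjusted p between 0.0235 and 0.0315 (edgeR). When 1 of the 6 samples was left out in turn, Blvrb and Cp each lost their call in 5 of 6 fits and Steap3 and Tfrc in 4 of 6. All 4 lost it without non-stroked replicate 1 or 2 or stroked replicate 1, 3 of them (all but Tfrc) without non-stroked replicate 4, Blvrb and Tfrc without stroked replicate 2, and Cp without stroked replicate 3.

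In NSG samples 8 genes rose (13% of all genes were called higher) and Tfrc fell (8.89% lower). The median log2 fold change was 1.33 over the 10 genes and 0.030 over all genes. The 8 genes were higher in every stroked than in every non-stroked sample (13.6% of all genes), and Tfrc was lower in all (11.5%). The eighth gene was Fth1. It was 1411, 1508, 1020 and 1530 CPM in non-stroked replicates 1 to 4 and 3332, 2201 and 1866 CPM in the stroked ones, without overlap. Its log2 fold change was 0.85 ± 0.21 (1.80-fold, adjusted p = 0.00596, edgeR). The summed level of 7 oligodendrocyte markers was 7158, 7203, 4293 and 6583 CPM in the non-stroked replicates. In the stroked replicates 1 to 3 this sum was 9335, 6641 and 6260 CPM. The part of oligodendrocyte content in the level of Fth1 was not tested. Tfrc fell by 0.61 ± 0.18 on the log2 scale (adjusted p = 0.0164, edgeR), to 54.4 to 64.6 CPM from 82.8 to 97.2 CPM. Without stroked replicate 1 neither was called, with Fth1 at 0.56 (adjusted p = 0.103) and Tfrc at -0.61 (adjusted p = 0.0571) in edgeR. With only the NSG groups fitted, Fth1 had an adjusted p of 0.0616 (edgeR). The neuron marker sum was 7654 to 8961 CPM without and 6522 to 7190 CPM with a stroke. The endothelial marker sum was 174.5 to 212.6 CPM without and 134.4 to 193.1 CPM with one. The part of these cells in the fall of Tfrc was not tested. Steap4 had 2 to 5 counts in each non-stroked NSG sample, and the stroked samples had 10.2, 52.0 and 8.05 CPM, so that its log2 fold change of 7.83 (95% interval 5.56 to 10.1) rests on few control reads. Stroked replicate 2 had the highest phagocyte marker sum of the 3 (1015 CPM, beside 254 and 310 CPM) and the most Hmox1, Ftl1, Slc40a1, Slc11a1, Cp, Steap3 and Steap4, but not the most Fth1 or Blvrb. The sum of 5 fibroblast markers was also highest in that sample (1024 CPM, beside 193 and 292 CPM). The part of either cell type in these levels was not tested.

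None of 6 red blood cell markers (Hba-a1, Hba-a2, Hbb-bs, Hbb-bt, Alas2 and Slc4a1) was called in any of the 5 stroke comparisons. Their sum was 3.89 to 24.9 CPM in non-stroked and 2.83 to 7.85 CPM in stroked WT samples, and 15.3 to 97.6 and 17.1 to 41.6 CPM in NSG samples. All 6 had counts in both groups of each of these strains.

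Whether the response to stroke differed between strains was tested as a difference of differences. For Rag2-/- against WT, 0 of the 10 genes and 0% of all genes were called in edgeR. Before adjustment, 0 of the 10 and 713 of all genes had p under 0.05. The difference in log2 fold change was -0.12 for Ftl1 (95% interval -1.0 to 0.77), 0.38 for Hmox1 (-0.51 to 1.28) and 0.092 for Slc11a1 (-1.20 to 1.38), so that differences of about 1 on the log2 scale lay within these intervals. For Tfrc it was -0.50 (-1.01 to 0.013), and -0.18 within Imm2. For NSG against WT, 0 of the 10 and 0.0294% of all genes were called, and 1 of the 10 had an unadjusted p under 0.05. Fth1 had a difference of 0.82 (95% interval 0.23 to 1.41, unadjusted p = 0.00837, adjusted p = 0.254, edgeR), and within Imm2 this was 0.49. The fall of Tfrc in NSG differed from WT by -0.44 (-0.94 to 0.053), and by -0.14 within Imm2. A fall of Tfrc that was called in Rag2-/- and NSG but not in WT was therefore not shown to differ between strains. DESeq2 also called 0 of the 10 in both tests.

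Without a stroke the strains were also compared. For Rag2-/- against WT, 0 of the 10 genes were called (0.00587% of all genes), with edgeR. For NSG against WT, 0 of the 10 were called, where 9.76% of all genes were, and for NSG against Rag2-/- 0 of the 10, beside 6.33% of all genes. Steap3 came nearest, with 8.48 to 10.2 CPM in NSG and 5.27 to 7.09 CPM in WT samples. These did not overlap, which held for 9.84% of all genes in the higher direction. Blvrb (higher) and Steap4 (lower, as 11.9% of all genes) did not overlap either. For Steap3 the log2 difference was 0.58 (95% interval 0.016 to 1.14, unadjusted p = 0.0441, adjusted p = 0.203, edgeR). Blvrb had an unadjusted p of 0.0477 (log2 difference 0.29, adjusted p = 0.212, edgeR), and no other of the 10 was under 0.05 before adjustment in these 3 comparisons. DESeq2 also called 0 of the 10 in each. Steap3 was called in NSG against either strain when only the 2 groups compared were fitted.

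Tacrolimus from day 0 left 4 of the 10 genes called after stroke against non-stroked WT samples, all higher (6.18% of all genes higher, 2.36% lower). They were Hmox1 (log2 fold change 1.503 ± 0.30, adjusted p = 0.00607), Ftl1 (1.28 ± 0.30, 0.0146), Slc11a1 (1.76 ± 0.44, 0.0194) and Steap4 (4.83 ± 0.97, 0.00577), in edgeR. The median log2 fold change was 0.68 over the 10 genes and 0.012 over all genes. Only Ftl1 and Slc11a1 were higher in all 3 treated than in all non-stroked WT samples (10.4% of all genes). The 3 samples differed greatly from each other. Slc11a1 was 3.02, 2.33 and 15.8 CPM in replicates 1, 2 and 3, and Ftl1 was 133, 147 and 429 CPM. Replicate 3 thus resembled the stroked WT samples in these genes, and replicates 1 and 2 lay just above the non-stroked range.

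Hmox1 followed another order, with 13.2, 4.70 and 17.3 CPM, so that replicate 1 reached the stroked WT range and replicate 2 stayed in the non-stroked one. Steap4 was 3.72, 0.0832 and 20.7 CPM, and replicate 2 lay below every non-stroked WT sample. Without replicate 2 the 4 genes were called as before, with Hmox1 at 1.85 and Slc11a1 at 2.15 on the log2 scale. Without non-stroked WT replicate 1, Ftl1 and Slc11a1 just missed the threshold (adjusted p of 0.0515 and 0.0543, edgeR). Without replicate 3 of the treated samples none was called, and Slc11a1 was at 0.38 (adjusted p = 0.651, edgeR). With the cohort as a covariate none was called either, and within Imm2, where replicate 1 stands alone, Hmox1 was called (1.67, adjusted p = 0.015, edgeR).

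Against stroked WT samples, 0 of the 10 genes (0% of all genes) were called in WT-Tacr acute with edgeR, and DESeq2 called 0 of the 10 as well. Log2 differences ran from -1.31 (Steap4, 95% interval -2.85 to 0.22) to 0.39 (Tfrc, 0.031 to 0.75). Slc11a1 was at -0.86 (-1.73 to 0.023) and Hmox1 at -0.23 (-0.85 to 0.38). Unadjusted p was under 0.05 for 2168 of all genes and 4 of the 10 (Blvrb, Tfrc, Cp and Steap3). Without replicate 3, Ftl1, Slc11a1, Cp, Steap3 and Steap4 were called lower, Slc11a1 by 2.22 on the log2 scale (adjusted p = 0.000587, edgeR). The share of all genes called in that fit was not determined. It keeps replicates 1 and 2, whose phagocyte marker sums were 64.9 and 24.9 CPM, beside at least 249.9 CPM in stroked WT samples. The part of these cells in the 5 differences was not tested. Without replicate 2 none was called, and Slc11a1 was at -0.45.

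WT-Tacr delayed had the highest group means of Hmox1, Ftl1, Slc40a1, Slc11a1, Cp and Steap4. Against non-stroked WT samples 8 were called higher, at a background of 27.6% of all genes higher and 27.6% lower, and none lower. The median log2 fold change was 1.98 over the 10 genes and 0.0036 over all genes. The 8 were higher in all 5 treated samples than in all non-stroked WT samples, as were 26.5% of all genes. Slc40a1 joined the 7 genes called in WT. It was 11.4, 12.3, 17.5, 9.55 and 16.8 CPM in replicates 1 to 5, all above the non-stroked range, with a log2 fold change of 0.89 ± 0.27 (adjusted p = 0.00704, edgeR). With the cohort as a covariate, which only stroked WT and WT-Tacr acute samples can inform, it was -0.23 (adjusted p = 0.682, edgeR). In that fit Cp also lost its call (1.23, adjusted p = 0.0546, edgeR), beside 2.14 without the covariate, and the other 6 kept theirs. Hmox1 had 17.9 to 27.5 CPM (median 20.3), Ftl1 386 to 624 CPM (median 470.1) and Slc11a1 13.5 to 27.7 CPM (median 19.3). Their log2 fold changes were 2.40, 2.36 and 3.25. Fth1 (1268 to 1407 CPM) and Tfrc (78.7 to 99.7 CPM) were not called, with log2 fold changes of -0.31 and 0.02, but Fth1 was called lower (-0.30, adjusted p = 0.0328, edgeR) when only these 2 groups were fitted. All 5 samples are TF and all non-stroked samples Imm2, so cohort and treatment cannot be told apart here.

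Against stroked WT samples, 0 of the 10 genes (0% of all genes) were called in WT-Tacr delayed with edgeR, and DESeq2 called 0 of the 10 as well. Unadjusted p was under 0.05 for 3455 of all genes and 3 of the 10, Hmox1, Ftl1 and Slc40a1, with log2 differences of 0.66, 0.72 and 0.68. Within TF, where 2 stroked WT samples remain, these were 0.41, 0.37 and 0.25. Delayed against acute treatment is a direct comparison of 5 and 3 samples. In it 6 of the 10 genes were called higher (10.4% of all genes higher, 9.96% lower). These were Hmox1 (0.89), Blvrb (0.48), Ftl1 (1.09), Slc11a1 (1.49), Cp (1.35) and Steap3 (1.24), with adjusted p between 0.0104 and 0.0328 in edgeR. In the same comparison 7 of 8 activated phagocyte, 5 of 8 homeostatic microglia and 3 of 5 border macrophage markers were called higher, and the phagocyte sum was 465 to 1261 CPM in delayed and 24.9 to 523 CPM in acute samples. Their part in the 6 differences was not tested. None was called within TF, with only the groups compared, or without acute replicate 1 or 2. With the cohort as a covariate Hmox1 lost its call (0.80, adjusted p = 0.0986, edgeR) and the others kept theirs. Without delayed replicate 5 only Ftl1, Cp and Steap3 were called, and without delayed replicate 3 all but Hmox1.

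The other genes of heme and iron handling are given by list, with counts to be read against the share of all genes called in the same comparison. That share, in either direction, was 26.9% in WT, 8.54% in WT-Tacr acute, 55.2% in WT-Tacr delayed, 8.23% in Rag2-/- and 21.9% in NSG. Of 7 enzymes of heme synthesis, 1 rose in stroked WT samples (Ppox, log2 fold change 0.38) and 1 fell (Cpox, -0.42). Ppox and Urod rose in NSG samples (0.31 and 0.35), Ppox and Uros in WT-Tacr delayed (0.51 and 0.36), where Cpox (-0.66) and Fech (-0.30) fell. Of 9 genes of heme breakdown, scavenging and transport, Hp and Cd163 rose in WT. Hp, the plasma protein haptoglobin that binds free hemoglobin, had 0 to 3 counts in non-stroked and 9 to 27 in stroked WT samples. Cd163, the macrophage receptor for that complex, rose from 0.88 ± 0.18 to 2.02 ± 0.71 CPM (log2 fold change 1.19, adjusted p = 0.00177, edgeR). Hmox2, the constitutive heme oxygenase, and Blvra, the main biliverdin reductase of adult tissue, were not called in WT. In other groups Hp was called in both WT-Tacr groups and NSG, and Cd163 in both WT-Tacr groups and Rag2-/- (1.01, 1.72 and 1.195). Hpx, the heme-binding hemopexin, was called in NSG samples (1.07). In WT-Tacr delayed, Blvra (0.56) and the heme exporter Flvcr1 (0.48) rose and Slc48a1, a heme transporter of lysosomes, fell by 0.32 on the log2 scale.

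Of 10 genes of iron uptake and reduction, 3 rose in stroked WT samples. Lcn2, a lipocalin that binds iron-loaded siderophores, went from 0.142 ± 0.13 to 60.4 ± 38 CPM (log2 fold change 8.68, adjusted p = 1.61e-05, edgeR) and was called in all 5 stroked groups. Cybrd1, a ferric reductase, rose by 2.12 and Trf, the iron carrier transferrin that oligodendrocytes express, by 0.57 on the log2 scale. Cybrd1 and Trf were called in every stroked group except WT-Tacr acute. The divalent metal transporter Slc11a2 was called in none. Steap2, another metalloreductase, fell in NSG samples (-0.64), and Slc22a17, a receptor for lipocalin, rose in WT-Tacr delayed (0.29).

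Of 6 tested genes of iron export and the hepcidin axis, 4 rose in stroked WT samples: Hfe (1.43), Bmp6 (0.79), Tmprss6 (2.54) and Hephl1, which had 0 counts in all 4 non-stroked and 0 to 34 in stroked WT samples. Hfe2, which encodes the BMP co-receptor hemojuvelin, fell by 1.70 on the log2 scale, from 41 to 72 counts per sample to 9 to 19. The same 5 genes were called in WT-Tacr delayed, Hfe and Bmp6 in Rag2-/- (1.77 and 1.10), Hfe and Tmprss6 in NSG (1.39 and 1.72) and Tmprss6 in WT-Tacr acute (2.27). Their median log2 fold change in WT, over all 6, was 1.11. Hamp, hepcidin itself, was too low to be tested. Of 3 tested genes of iron storage and chaperones, Pcbp1 fell by 0.22 on the log2 scale, and by 0.31 in WT-Tacr delayed. None of the 3 genes of the iron regulatory proteins (Aco1 and Ireb2) and their regulator (Fbxl5) or the 5 genes of mitochondrial iron was called in WT. Their median log2 fold changes were 0.047 and -0.025. Nfs1 of the mitochondrial list rose in WT-Tacr delayed (0.31).

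Of 9 genes around NRF2, the factor that with heme-sensitive BACH1 controls Hmox1, 4 rose in stroked WT samples: Nfe2l2 itself (1.10), Bach1 (0.56), Nqo1 (0.90) and Srxn1 (0.22). The glutathione genes Gclc, Gclm and Slc7a11 were not called. In Rag2-/- samples Nfe2l2 and Nqo1 were called, in NSG samples Nfe2l2, and in WT-Tacr acute Srxn1. In WT-Tacr delayed, where 55.2% of all genes were called, 6 were higher and 3 (Keap1, Gclc and Gclm) lower.

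**Figure D4:**
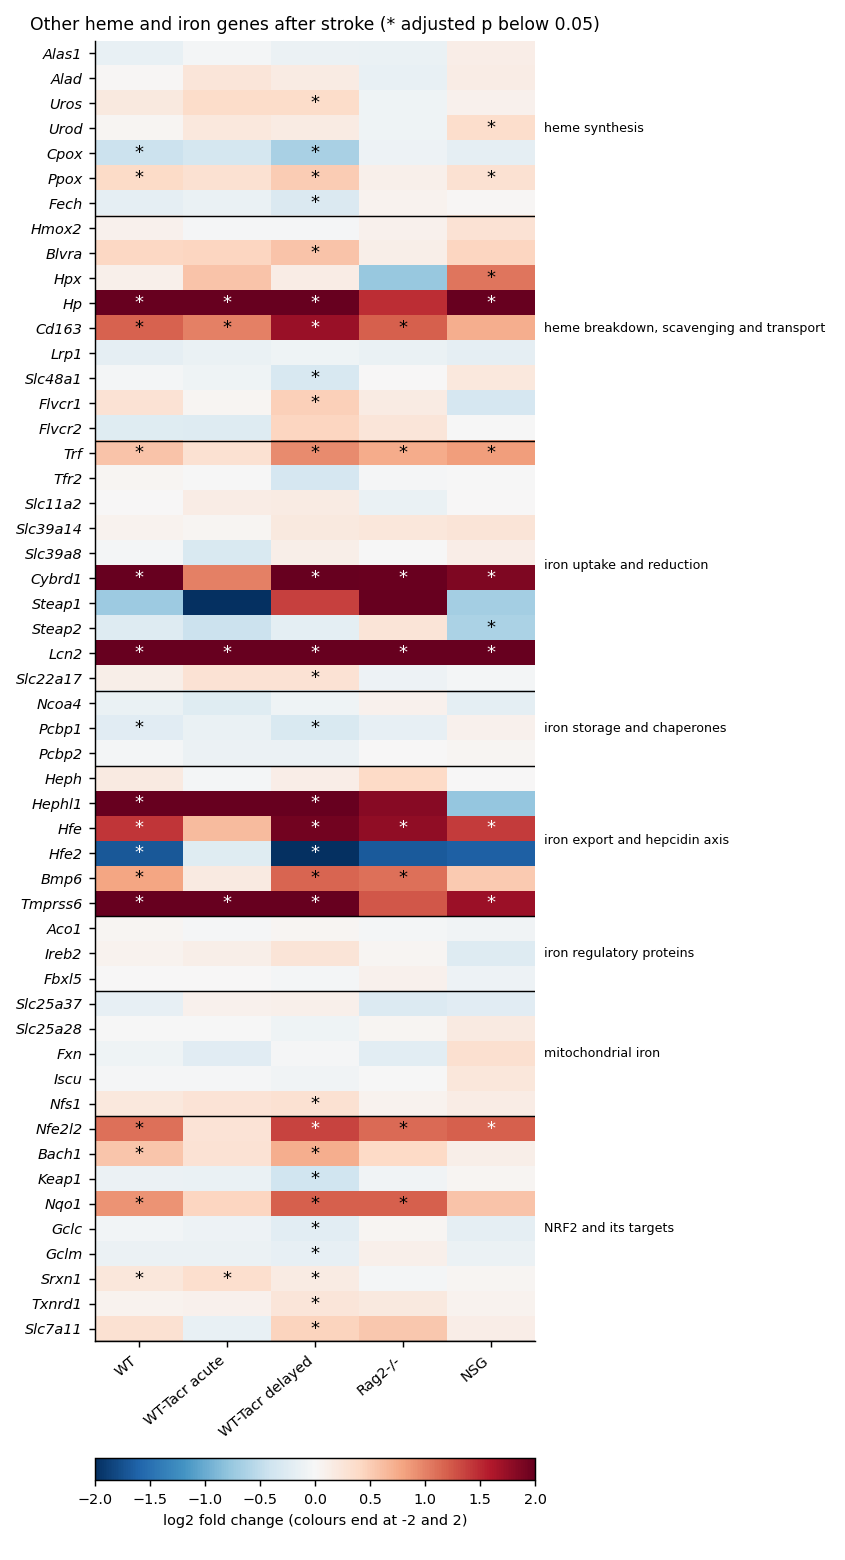
Log2 fold change of the other heme and iron genes that were tested, stroked against non-stroked samples of the same strain (columns, 5 stroked groups), in lists by role (rows), with colours that end at -2 and 2 and an asterisk at an adjusted p below 0.05 in edgeR. Lcn2 has an asterisk in all 5 columns, and the iron regulatory proteins Aco1 and Ireb2 and their regulator Fbxl5 have none.

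For each of the 7 genes called in WT, the genes most like it were found by the root mean square difference of centred group mean log2 CPM over the 8 groups. Hmox1 was nearest to Tlr7 (0.116) and Fcgr3 (0.151), a nucleic acid sensor and an antibody receptor of phagocytes. Steap4 was nearest to Gpnmb (0.438) and Clec7a (0.488), both genes of activated phagocytes. Slc11a1 was nearest to Emp3 (0.101) and Serping1 (0.129), and Cp to Gm49369 (0.0955) and Unc93b1 (0.110). Steap3 was nearest to Angpt2 (0.0863) and Colec12 (0.0948), Ftl1 to Gm45717 (0.0852) and Naip5 (0.0869), and Blvrb to Mustn1 (0.0748) and March3 (0.0765). Blvrb moved little, so a small distance to it says less than one to Steap4. A distance over 8 group means does not show which cells hold a transcript.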

How the data were processed

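Raw counts of 29 brain RNA samples were used as the authors deposited them: whole, unnormalized reads per Ensembl gene, from polyA-selected stranded libraries that a core facility aligned and counted. The aligner, its build and the strand setting are not given in the sources used here. Gene names and lengths are from GENCODE M21 (25712 IDs found, 34 not). Replicates differed by more than counting noise (chi-square per degree of freedom at least 7.96).

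The edgeR package (version 4.0.16, R 4.3.3) compared the counts by its quasi-likelihood test after filterByExpr and TMM scaling, with all 8 groups in 1 fit and Benjamini-Hochberg adjustment over 17031 genes in each of 13 comparisons. A gene was called at an adjusted p below 0.05. SE is the log2 fold change over the square root of F. CPM uses the TMM-adjusted library size. The fit was tested on simulated data. All 10 genes are named throughout, genes of the other lists when called in WT or when 5 or fewer of a list were called. The 10 genes and all lists were chosen with earlier results of these data known. A gene of the heme synthesis list is not reported here.

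Alternatives were RLE normalization, other filters, DESeq2 1.42.0, a minimum log2 fold change of 1, the cohort as a covariate, single cohorts, only the groups compared, a replicate block and leaving out each sample.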

Additional observations from a re-analysis of the deposited data

Results flagged for a closer look

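Values were examined in the 40 sets of 4 or 5 samples of 1 group and gene, and 3 samples stood far from the rest of their group by Dixon's criterion, where chance gives about 1 in 20. Ftl1 was 97.1 CPM in non-stroked NSG replicate 1, below 112 to 115 CPM in the other 3. Cp was 85.7 CPM in WT-Tacr delayed replicate 5, above 45.9 to 55.6 CPM in the other 4, and the same sample had the highest fibroblast (1274 CPM) and phagocyte (1261 CPM) marker sums of the 5. Steap4 was 0.577 CPM in non-stroked WT replicate 5, above 0.171 to 0.190 CPM in the other 3. Their causes were not tested.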

How the results depend on the processing

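The count of genes called among the 10 stayed within 1.5 times its value under every alternative for stroke in WT, in WT-Tacr delayed and in NSG, and for the differences of differences. Leaving out 1 sample at a time gave 7 to 7, 8 to 8 and 7 to 9 called genes there. For stroke in WT-Tacr acute the count of 4 became 0 with the cohort as a covariate, 0 with only the groups compared and 1 within Imm2, and 0 to 4 when 1 sample was left out (0 without acute replicate 3, 2 without non-stroked WT replicate 1). For stroke in Rag2-/- it ranged from 4 to 7 when 1 sample was left out. For WT-Tacr acute against stroked WT it ranged from 0 to 5. For delayed against acute it was 0 with only the groups compared, 0 within TF, and 0 to 8 when 1 sample was left out. Only the groups compared gave 1 called gene (Steap3) in non-stroked NSG against WT and 1 against Rag2-/-. In WT-Tacr delayed, Slc40a1 turned from 0.89 to -0.2281 with the cohort as a covariate, and the cause was not tested.

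The replicate block on same-numbered non-stroked samples gave 0 called genes in all 3 comparisons, and the same samples without the block gave 1 (Steap3) for NSG against WT. Same-numbered non-stroked samples of different strains did not deviate together (correlations -0.233 to 0.118), so the numbers were not taken as pairs between strains. Pairing of stroked with non-stroked samples within a strain was not examined. Steap4 did not pass the filter on low counts when 2 non-stroked groups were fitted alone.

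All samples of TF are stroked, so stroke within TF could not be compared. Steap4 in non-stroked NSG samples is limited by its 2 to 5 counts.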
